A study of Rattus norvegicus with 6 samples.

Results

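The genes described here are 8 genes that erythroid cells, the precursors of red blood cells, are known for: Ahsp, Hbb, Rhd, Rhag, Slc4a1, Gata1, Klf1 and Epor. They were found by exact match of the gene symbol in the deposited series table, which gave 8 of 19958 genes on the array. They are read by 10 of 30367 gene probes, 2 probes each for Ahsp and Hbb and 1 for each of the other 6, and each probe has 2 spots, so 20 of 58717 gene spots per array. The study measured rat RNA on 6 one-colour Agilent arrays of 1 slide, 1 array per group. Iron-free liver and iron-free kidney came from Wistar rats that ate an AIN-93G diet lacking iron over 4 weeks, and control liver and control kidney from Wistar rats that ate the iron-containing diet over the same 4 weeks. The RNA of 6 animals was pooled for each tissue and diet. The growth and treatment labels call the animals mice, while the organism and strain labels say rat. Deferoxamine-treated FAO cells, a rat liver cell line, had 100 µM of this iron chelator for 24 h, and untreated FAO cells had vehicle for 24 h, with the RNA of 3 cultures pooled for each. A pool on 1 array leaves no replicate, so no p-value is given, and the spot error (SE) printed with a difference covers only the noise between spots of a probe.

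Erythroid precursors depend on erythropoietin, a hormone of the kidney whose receptor is encoded by Epor, and on the transcription factors Gata1 and Klf1. These factors bind short DNA elements, the GATA motif and the CACC-type motif, in the genes of globin chains, heme synthesis and the red cell membrane. Precursors take up iron through the transferrin receptor, build heme, and fill with hemoglobin, while Ahsp, a chaperone, holds free alpha globin until it pairs with beta globin. In adult rats red cells form mainly in bone marrow, and spleen and liver can also hold precursors. Young red cells in the blood still carry globin mRNA, so RNA of a whole tissue includes RNA of its blood. In such bulk samples more cells of a type and more RNA per cell cannot be told apart.

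RefSeq promoter windows (build GRCr8) were at hand for 6 of the 8 genes, and Ahsp and Slc4a1 were not in that table. The 250 bases before the start site were searched on both strands for the GATA motifs AGATAA and TGATAA, the KLF motif CCNCNCCC, and the E-box motifs CAGCTG and CANNTG, of which the second includes the first. A GATA motif was found in 4 of the 6 windows (Rhd, Rhag, Klf1 and Epor), against 16.9% of 33469 windows of all genes. A KLF motif was found in 4 of 6 (Hbb, Rhd, Gata1 and Epor), against 42.8% of all windows, so it is a common match, and CANNTG was found in 4 of 6, against 65.5%. CAGCTG was found in 1 of 6 (Epor), against 4007 of the 33469. The windows of 4 genes are shown, 3 that were at least 2-fold higher in a comparison below and Klf1, of the factors that give the KLF motif its name. Each runs 5′ to 3′ along the gene's strand, and capitals mark GATA, KLF and CAGCTG matches, of which overlapping ones run together. The Hbb window (chr1:167663722-167663971, minus strand) holds CCACACCC, 98 bases before the start. The Rhd window (chr5:152370950-152371199, plus strand) holds AGATAA at 72 bases and, read on the opposite strand, a KLF motif at 28 bases before the start. The Klf1 window (chr19:40158652-40158901, minus strand) holds a GATA motif at 26 bases, and the Epor window (chr8:28770323-28770572, minus strand) holds one at 114 bases, beside 4 KLF matches and 3 of CAGCTG. These are matches of letters in a window, and no binding was measured.
Hbb: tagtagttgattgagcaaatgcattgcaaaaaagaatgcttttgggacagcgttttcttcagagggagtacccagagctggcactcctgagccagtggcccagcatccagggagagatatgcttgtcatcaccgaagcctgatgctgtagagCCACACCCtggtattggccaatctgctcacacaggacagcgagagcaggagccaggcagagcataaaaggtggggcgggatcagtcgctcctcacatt
Rhd: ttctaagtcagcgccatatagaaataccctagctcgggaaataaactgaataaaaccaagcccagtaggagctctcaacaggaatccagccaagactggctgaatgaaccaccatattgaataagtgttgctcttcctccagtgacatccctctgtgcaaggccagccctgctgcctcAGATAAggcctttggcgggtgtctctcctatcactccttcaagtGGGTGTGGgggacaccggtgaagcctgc
Klf1: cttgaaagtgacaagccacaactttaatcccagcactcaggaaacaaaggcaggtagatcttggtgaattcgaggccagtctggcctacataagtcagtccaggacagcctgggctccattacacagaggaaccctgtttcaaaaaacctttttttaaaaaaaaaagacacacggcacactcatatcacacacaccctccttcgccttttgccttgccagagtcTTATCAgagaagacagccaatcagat
Epor: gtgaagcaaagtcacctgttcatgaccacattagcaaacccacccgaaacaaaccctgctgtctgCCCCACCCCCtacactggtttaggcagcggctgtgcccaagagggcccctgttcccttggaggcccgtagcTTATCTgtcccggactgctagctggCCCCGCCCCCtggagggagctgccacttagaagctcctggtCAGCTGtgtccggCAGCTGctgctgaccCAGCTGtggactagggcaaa

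Signals are given as scaled signal, the background-subtracted intensity after each array was scaled to the same 75th percentile of 9091 probes well above background on all 6 arrays, so that 1 probe can be set across arrays but not against another probe. Between 37.7% and 48.8% of probes were well above background on an array. The lowest signal of such a probe was 37.5 on iron-free and 45.0 on control liver, 92.6 on iron-free and 105 on control kidney, and 20.2 on deferoxamine-treated and 21.3 on untreated FAO cells, so the kidney arrays see low signals least well. Where 1 array of a pair was not well above background, the difference is a bound, written as at least N-fold. Tissue markers matched the labels: albumin (Alb) had 142826 and 86391 on iron-free and control liver and at most 29.2 on the kidney arrays, and uromodulin (Umod) had 164908 and 200247 on iron-free and control kidney and at most 12.7 on the liver arrays. FAO cells had an Alb signal of 43497 with deferoxamine and 41323 untreated. The control liver array had 38 of 264 blocks of spots that scattered more than 4 times the usual amount, against 0 to 13 on the other arrays. Of the spots of the 8 genes, 2 lay in such a block, both of Hbb probe 1 and both on control arrays.

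**Figure D1:**
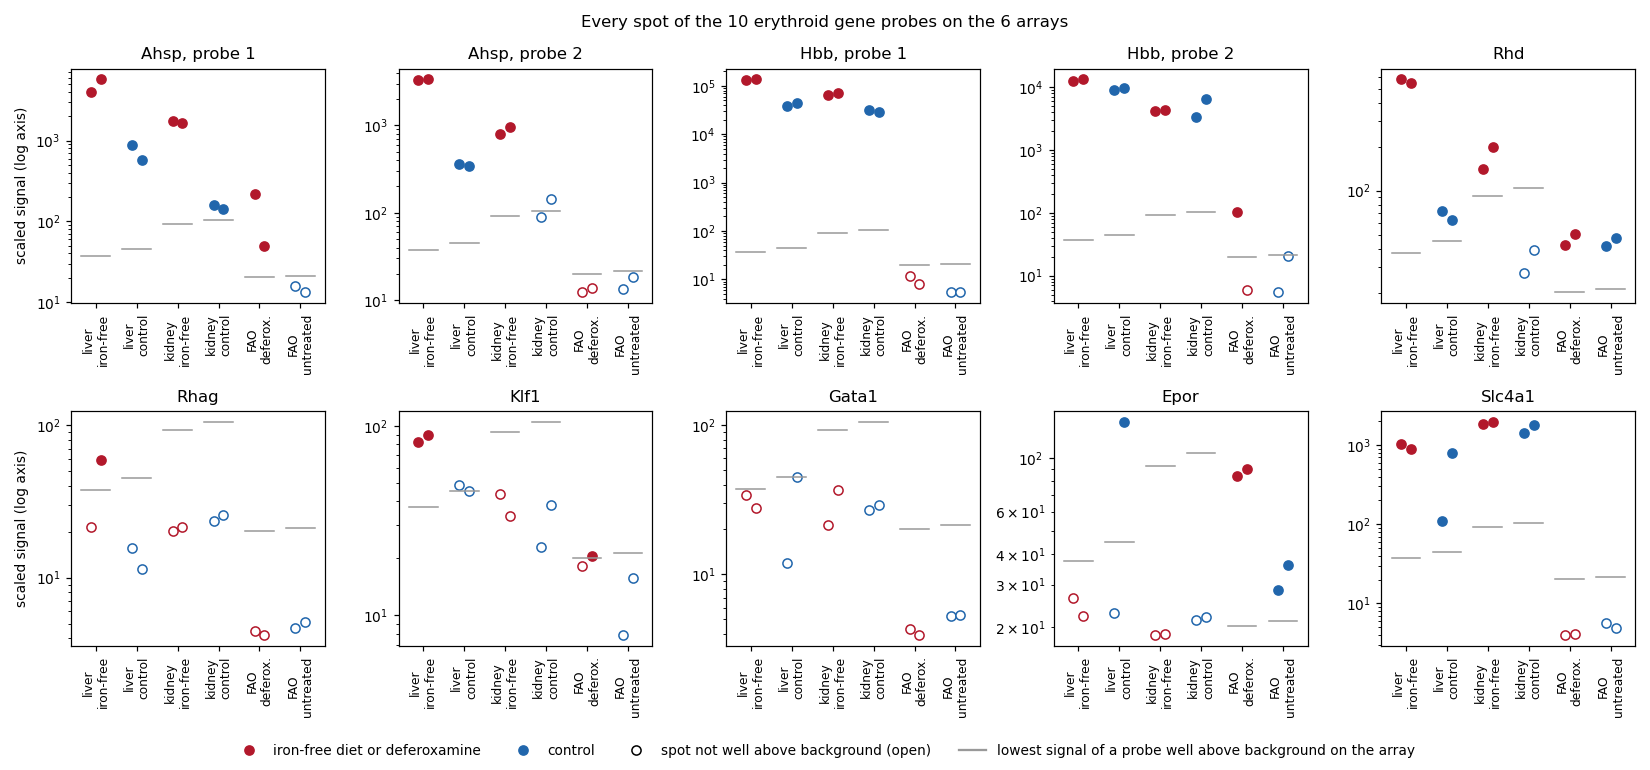
Scaled signal (log axis, own range per panel) of both spots of each of the 10 probes on the 6 arrays, with red for iron-free diet or deferoxamine, blue for control, open circles for spots not well above background and grey lines for the lowest signal of a probe well above background on that array. Ahsp, Hbb probe 1 and Rhd show red above blue in liver and kidney without overlap of spots, while Gata1 has open circles on all 6 arrays.

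In iron-free liver, 4 of the 8 genes were at least 2-fold higher than in control liver (Ahsp, Hbb, Rhd and Slc4a1), 0 were at least 2-fold lower, and 5 of the 8 could be measured. Over all 10172 genes measured in liver, 6.52% (663) lay past 2-fold upward, 3.01% (306) downward and 9.53% either way. With arrays scaled to the median of their detected probes these were 2120 and 78, and the median shift of a gene's difference was 0.58 on the log2 scale. In iron-free kidney, Ahsp and Hbb were at least 2-fold higher, 2 of the 8 genes with 4 measured, against 3.11% of 8952 genes higher (278), 1.26% lower (113) and 4.37% either way. Those counts with the other scaling were 402 and 79. In FAO cells with deferoxamine, Ahsp and Epor were at least 2-fold higher, 2 of the 8 genes with 3 measured, against 4.05% of 10696 genes higher, 6.44% lower and 10.5% either way. The FAO count of the 8 genes fell to 1 with normexp background correction and to 1 with a 3-fold rule. Ahsp was called there by probe 1 only, since probe 2 was not well above background. With noisy blocks left out, 435 genes were higher and 401 lower in FAO cells, against 433 and 689 with them. The median log2 difference over all genes measured was 0.02 in liver, -0.03 in kidney and 0.03 in FAO cells. These shares are over measured genes. Over all 19958 genes on the array, the base that matches a count out of 8, the shares higher were 3.32% in liver, 1.39% in kidney and 2.17% in FAO cells. A gene that is measured only because the treated array lifted it above background had to be higher, and 380 of the 663 higher genes in liver are such bounds.

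**Figure D2:**
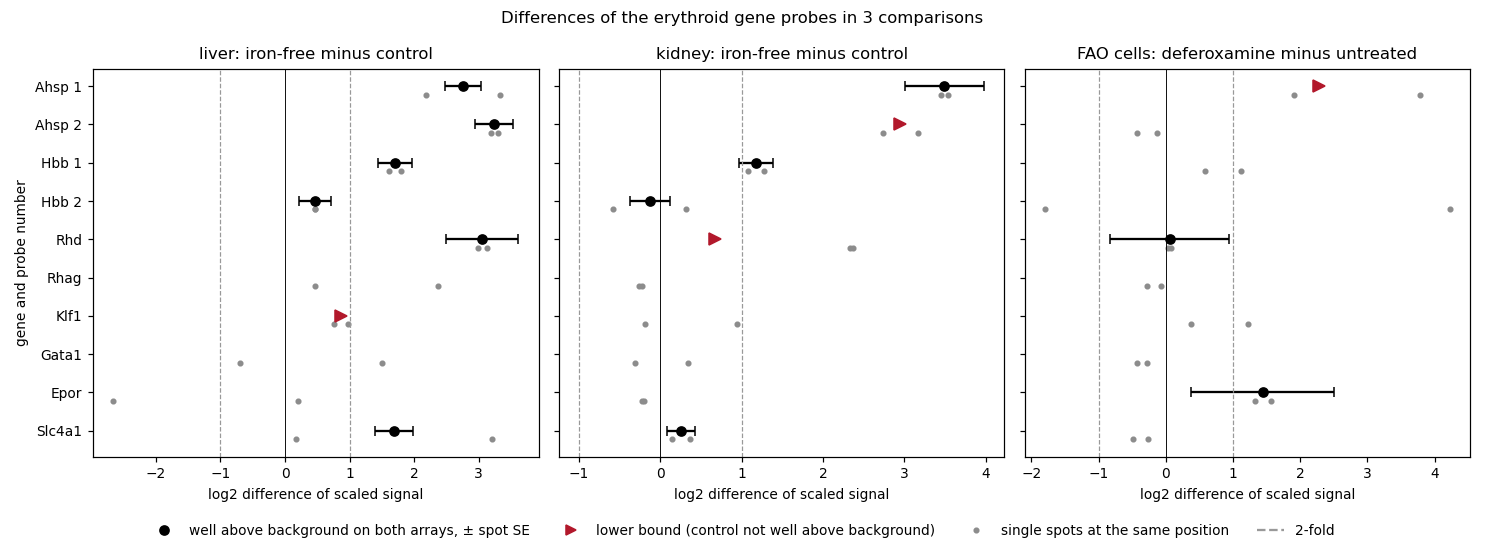
Difference in log2 scaled signal, iron-free minus control or deferoxamine minus untreated, for each probe in the 3 comparisons; black points carry the spot SE, red triangles are lower bounds, grey points are single spots at the same array position and dashed lines mark 2-fold. Grey points aside, liver has 5 points to the right of the 2-fold line (both Ahsp probes, Hbb probe 1, Rhd and Slc4a1). Kidney has 3 black or red marks there, both Ahsp probes and Hbb probe 1.

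Ahsp (NCBI gene 293522) was higher on both iron-free tissues by either of its probes. On probe 1 its spots read 3991 and 5761 on iron-free liver, against 880 and 573 on control liver. The means were 4795 in iron-free and 710 in control liver, a difference of 2.76 ± 0.27 (log2, spot SE) or 6.75-fold, and Ahsp ranked 43rd of 10172 genes. Both iron-free spots were above both control spots, and the spots of each array differed by 1.44-fold and 1.54-fold. On kidney the probe 1 spots read 1762 and 1634 without iron, against 161 and 141 in the control, means of 1696 and 151, a difference of 3.49 ± 0.49 or 11.2-fold. That placed Ahsp 17th of 8952 genes in kidney. Probe 2 gave 3354 in iron-free and 355 in control liver, 9.45-fold, a difference of 3.24 ± 0.30. In kidney it gave 880 without iron and 114 in the control, which was not well above background, so at least 7.73-fold higher.

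In order of probe 1 signal, the arrays ran iron-free liver, iron-free kidney, control liver, control kidney, deferoxamine-treated FAO and untreated FAO. The spots of neighbours in this order did not overlap, apart from control kidney (141 to 161) and deferoxamine-treated FAO (49.4 to 217). By probe 1, liver exceeded kidney 2.83-fold on the iron-free arrays and 4.71-fold on the control arrays. By probe 2 it did so 3.81-fold on the iron-free arrays and at least 3.12-fold on the control arrays. In FAO cells the 2 probes disagreed. Probe 1 read 217 and 49.4 with deferoxamine, a gap of 4.40-fold between spots, against 15.7 and 13.2 untreated, not well above background, which gives at least 4.86-fold. Probe 2 read 12.3 and 13.7 with deferoxamine, against 13.4 and 18.4 untreated, all not well above background, so its Ahsp signal gives no difference there.

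Hbb (NCBI gene 24440), an adult beta globin, was at least 2-fold higher on both iron-free tissues by its brighter probe only. Probe 1 read 134326 and 137023 on iron-free liver, against 38612 and 44829 on control liver, a difference of 1.71 ± 0.27 or 3.26-fold. On kidney it read 65673 and 69782 without iron, against 31100 and 28744 in the control, a difference of 1.18 ± 0.21 or 2.26-fold. The spots of the 4 tissue arrays did not overlap. Probe 2 read 12332 and 13402 on iron-free liver, against 8895 and 9747 on control liver, a difference of 0.47 ± 0.25, and 4184 and 4331 on iron-free kidney, against 3352 and 6485 on control kidney, a difference of -0.13 ± 0.25. In liver its spots were apart and in kidney they overlapped. In FAO cells neither probe was well above background on both spots of an array.

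The probe 1 spots on the control arrays were unlike the others in shape. The processed signal was 1.64 and 2.81 times the median pixel signal on control liver and 1.37 and 1.51 times on control kidney, against 1.13 to 1.14 times on iron-free liver and 1.13 times on iron-free kidney. On each control array 1 of these spots lay in a noisy block. From the median pixel signal with normexp correction, the probe 1 difference was 2.43 in liver and 1.47 in kidney, and with noisy blocks left out it was 1.62 and 1.15, so it stayed past 2-fold in both tissues. With the median of both probes in place of probe 1, the Hbb difference was 1.09 in liver and 0.52 in kidney, so the 2-fold mark was kept in liver and lost in kidney. The beta globin genes of the rat are close copies of each other, and a probe for Hbb may also read its neighbours, so which gene these signals belong to is uncertain.

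The other globin probes also differed among themselves. Hba1, an alpha globin, read 288019 in iron-free and 285193 in control liver by its first probe, a difference of 0.01, and 37044 and 10746 by its second, a difference of 1.79 from a single spot whose processed signal was 2.58 times its median pixel signal on control liver. In kidney both Hba1 probes were slightly lower without iron, at -0.23 and -0.20. In FAO cells the first Hba1 probe read 1091 with deferoxamine and 605 untreated, a difference of 0.85 ± 0.27. The second read 4.14 and 5.40 there, not well above background. Hbb-b1, another beta globin, differed by 0.58 and 0.62 in liver and by -0.40 and -0.30 in kidney on its 2 probes. The beta globin listed as LOC689064 read 41092 in iron-free and 13667 in control liver, 3.01-fold higher, with a kidney difference of 0.81. Of 9 globin genes on the array, 5 were measured in liver, and 2 of them were at least 2-fold higher and 0 lower, with a median difference of 0.59. In kidney 5 were measured, with Hbb alone higher, 0 lower, and a median of -0.13. The chains Hbe1, Hbz and Hbg1, which are known from early development, were not well above background on any of the 4 tissue arrays, while Hbe2, listed under an embryonic name, read 66075 in iron-free and 43794 in control liver.

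Of the membrane proteins, Rhd (NCBI gene 60414), a Rh blood group protein, had the largest liver difference when each gene is taken by its brightest probe. It read 579 and 547 on iron-free liver, against 72.8 and 62.9 on control liver, a difference of 3.06 ± 0.56 or 8.32-fold, 26th of 10172 genes. In kidney it read 140 and 199 without iron and 27.2 and 39.5 in the control. The spots did not overlap, but the control signal was not well above background, and against the lowest signal that this array detects the difference was at least 1.59-fold, short of 2-fold. FAO cells gave 46.5 with deferoxamine and 44.6 untreated, with overlapping spots and a difference of 0.06 ± 0.88. Iron-free liver exceeded iron-free kidney 3.37-fold.

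Rhag (NCBI gene 65207), the glycoprotein that carries Rh proteins to the membrane, was hardly seen. On iron-free liver its spots read 58.8, well above background, and 21.6, not so, against 15.6 and 11.3 on control liver. Both iron-free spots were above both control spots, but with 1 of 2 spots detected no difference is given. On the other 4 arrays it read between 4.33 and 24.7, not well above background.

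Slc4a1 (NCBI gene 24779) encodes band 3, the anion exchanger of the red cell, which acid-secreting cells of the kidney collecting duct also make in a shorter form. Its signal was highest in kidney, at 1894 without iron and 1590 in the control, a difference of 0.25 ± 0.18. Liver read 946 without iron and 293 in the control, a difference of 1.69 ± 0.30 or 3.23-fold. The 2 control liver spots lay far apart, at 110 and 782, against 1017 and 881 on iron-free liver, and single spots at the same position differed by 3.21 and 0.17. The liver difference of Slc4a1 therefore rests on 1 control spot, although both iron-free spots were above both control spots. Slc4a1 was 5.42-fold lower in control liver than in control kidney, where the spots read 1425 and 1775. The size of that ratio depends on the same control liver spots of 110 and 782, which both lay below the kidney spots. On the iron-free arrays the liver signal (946) was again below the kidney signal (1894). The iron-free response in liver was 1.44 ± 0.35 (log2, spot SE) above that in kidney, and this gap rests on the same control spot, since at the second spot position the differences were 0.17 in liver and 0.14 in kidney. It was not tested over animals. In FAO cells Slc4a1 read 4.04 with deferoxamine and 5.26 untreated, not well above background.

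Among the transcription factors, Klf1 (NCBI gene 304666), which activates adult beta globin, read 82.2 and 89.1 on iron-free liver. On control liver it read 45.3 and 48.6, not well above background. The spots did not overlap, and the difference was at least 1.82-fold, short of 2-fold. In kidney Klf1 read 38.4 without iron and 29.6 in the control, and in FAO cells 19.4 with deferoxamine and 11.2 untreated, none of them well above background on both spots. Gata1 (NCBI gene 25172), the factor that erythroid and megakaryocyte cells share, was not well above background on any array. It read 30.6 and 23.2 on iron-free and control liver, with overlapping spots, 28.2 and 27.9 on iron-free and control kidney, and 4.12 and 5.28 on deferoxamine-treated and untreated FAO cells. At this sensitivity a difference in Gata1 was not detectable.

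Epor (NCBI gene 24336), the erythropoietin receptor, stood apart in that its clearest signal came from FAO cells. It read 84.0 and 90.0 with deferoxamine, against 28.4 and 36.0 untreated, without overlap, a difference of 1.44 ± 1.07 or 2.72-fold. These are low signals. The median pixel signal, before background subtraction, was 193 and 192 with deferoxamine and 154 and 166 untreated, and with normexp background correction the difference was 0.40, under 2-fold. In liver Epor read 26.5 and 22.3 without iron, not well above background, against 23.0 and 141 in the control, where only the second spot was above background. The higher control value there is 1 spot. In kidney it read 18.7 without iron and 21.7 in the control, not well above background.

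Genes of erythroid cells beyond these 8 were taken from lists of known genes. Counts and medians of a list include bounds, and a gene detected on the iron-free array alone had to be higher. For some lists the values over genes detected on both arrays are therefore given too. Of 20 red cell membrane and skeleton genes, 10 were measured in liver, 5 were at least 2-fold higher and 0 lower, with a median of 1.04, and over the 8 detected on both arrays 4 were higher. Beside Rhd and Slc4a1 these included Add2, beta adducin, 3.91-fold higher (302 in iron-free and 77.1 in control liver), and Tmcc2, 2.70-fold higher (1234 and 457). Of the 17 that are not among the 8 genes, 8 were measured, with a median of 0.48. In kidney 0 of 9 measured passed 2-fold in either direction, with a median of 0.16, or -0.20 over the 7 detected on both arrays. Of 14 erythroid transcription factors and partners, 7 were measured in liver and 0 passed 2-fold. Their median was 0.20, or 0.11 over the 6 detected on both arrays. The brightest of them, Zfpm1, a partner of Gata1, read 2453 in iron-free and 2753 in control liver.

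Of 20 genes of heme synthesis and erythroid iron supply, 19 were measured in liver, 2 were at least 2-fold higher and 1 lower, with a median of -0.10. Tfrc, the transferrin receptor, was 13.1-fold higher in liver (18779 without iron, 1431 in the control), 7.97-fold higher in kidney, where it was the sole gene of the list past 2-fold among 17 measured, and 2.87-fold higher in FAO cells with deferoxamine. Alas2, which makes the first heme precursor in erythroid cells, read 5593 in iron-free and 1602 in control liver, 3.49-fold higher, and 1418 in iron-free and 871 in control kidney, a difference of 0.70. It was not well above background in FAO cells. Steap3, an iron reductase, was 2.41-fold lower in iron-free liver. Of 17 genes of red cell enzymes and maturation, 12 were measured in liver and 2 were higher, Ahsp and Ube2o, a ubiquitin enzyme of reticulocytes, at least 3.79-fold, with a median of 0.22, or 0.13 with 1 higher over the 10 detected on both arrays. In kidney 1 of 11 was higher, Ahsp.

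Of 18 genes of erythropoietin and stem cell factor signalling, 13 were measured in liver, 3 were at least 2-fold higher and 0 lower, with a median of 0.44, or 0.39 with 1 higher over the 9 detected on both arrays. These were Gdf15, a stress cytokine, at least 6.83-fold, Cish, a feedback inhibitor of cytokine signalling, 2.16-fold, and Bmp4, at least 2.07-fold. The liver difference of Cish, 1.11 ± 0.54 (log2, spot SE), came from 1 spot per array. In kidney 0 of 9 passed 2-fold. In FAO cells 3 of 14 were higher with deferoxamine, Epor, Cish (89.3 with deferoxamine and 40.7 untreated) and Gdf15 (4358 and 2178), and 1 was lower, Kitlg, the stem cell factor, by 3.39-fold. The Cish difference there was 1.13 ± 1.51 (log2, spot SE) from 1 spot per array, so its spot SE exceeded it. Gdf15 lay barely past the 2-fold mark, and Epor fell to 0.40 with normexp. Hamp, which encodes hepcidin, the liver hormone that limits iron release into plasma, read 89.0 in iron-free and 73800 in control liver, a difference of -9.70, and in FAO cells 1145 with deferoxamine and 689 untreated.

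**Figure D3:**
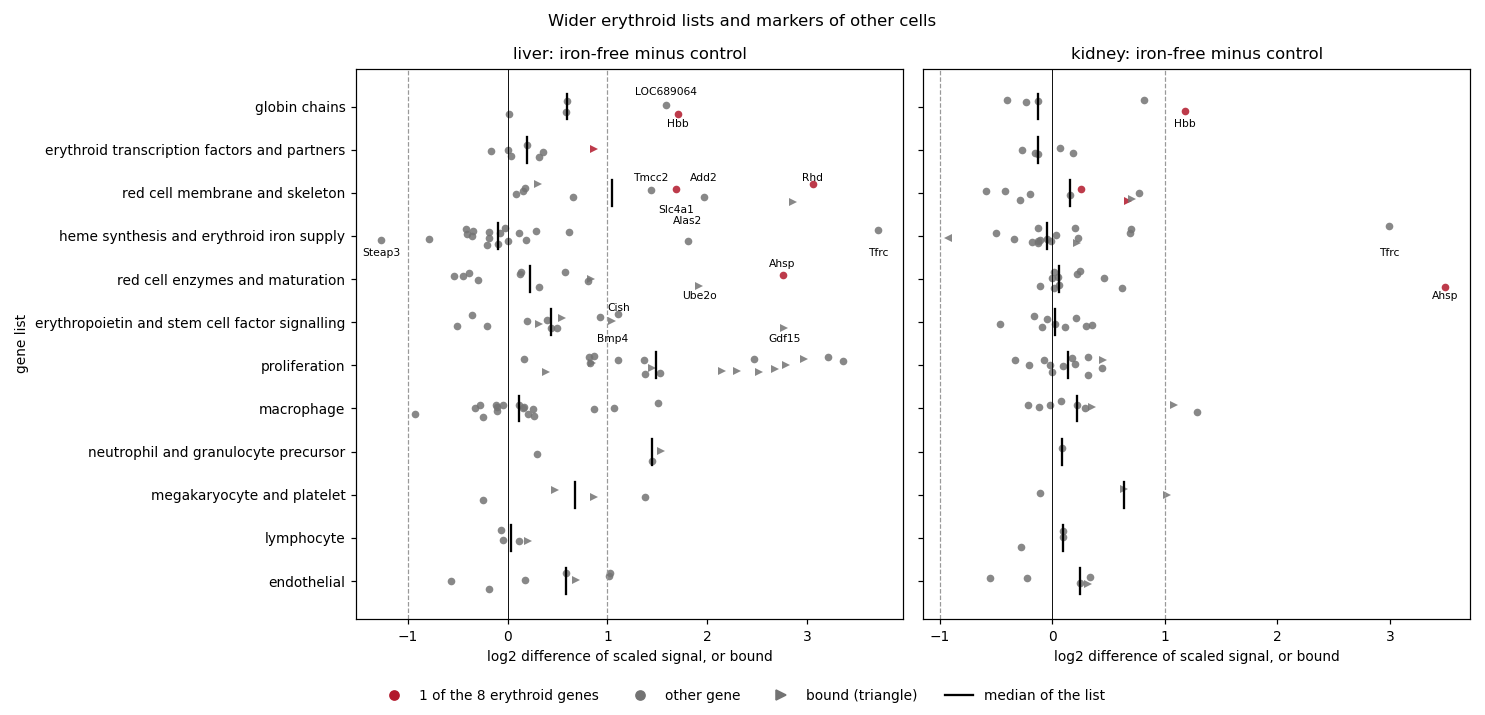
Difference in log2 scaled signal, iron-free minus control, of the measured genes of 12 lists in liver (left) and kidney (right), with red for the 8 erythroid genes, grey for others, triangles for bounds, black bars for list medians and dashed lines for 2-fold. In liver 9 of the 20 proliferation genes drawn are bounds, and no gene of that list passes 2-fold in kidney.

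Markers of other cells and states moved as well. Of 24 proliferation genes, 20 were detected on iron-free and 11 on control liver, and 14 were at least 2-fold higher and 0 lower, counting 9 bounds that had to be higher. Over the 11 detected on both arrays 7 were higher, with a median of 1.36. The summed signal of the 24 genes was 12651 in iron-free and 3319 in control liver, and such a sum over unlike probes mostly follows its brightest ones, here Rrm2, Mcm7 and Cdk1. The largest were Cdk1 at 10.3-fold, Rrm2 at 9.28-fold, Mki67 at least 7.85-fold and Ccna2 at least 6.91-fold. In kidney 0 of 12 measured proliferation genes passed 2-fold, with sums of 6131 without iron and 5842 in the control. Of 17 macrophage genes 2 were higher in liver, Lyz2 at 2.85-fold and Marco at 2.09-fold, with sums of 72090 in iron-free and 65686 in control liver. In kidney 2 of 9 measured macrophage genes were higher, Vcam1 at 2.44-fold and Timd4 at least 2.12-fold, with sums of 44192 without iron and 36545 in the control. Of 15 neutrophil genes 3 were measured and S100a8 (at least 2.90-fold) and S100a9 (2.73-fold) were higher, with sums of 1104 and 843, while the granule genes Elane, Mpo, Prtn3 and Ctsg were not well above background on either liver array. Of 12 megakaryocyte and platelet genes 4 were measured and Pf4 was 2.60-fold higher, with sums of 3210 and 2983. It was at least 2.03-fold higher in kidney as well.

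Of 13 lymphocyte genes 4 were measured and 0 passed 2-fold in liver, and likewise 0 of 3 measured among 9 genes of blood progenitors. The endothelial genes Stab2 and Lyve1 were 2.02-fold and 2.04-fold higher in liver, 2 of 7 measured of 10, with sums of 12136 and 14199, and Hdc, of the mast cell list, was at least 2.06-fold higher, 1 of 3 measured of 9. Of 15 hepatocyte genes 3 were higher in iron-free liver (Cyp3a9, Apoa1 and Tf) and 0 lower, with a median of 0.07. The part of these cells and states in the differences of the 8 genes was not tested.

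The profiles of Ahsp and Rhd over the 6 arrays were set beside those of 9952 genes that were well above background on iron-free liver and at least 1 other array, by the root mean square distance of log2 signal after each was centred on its mean, with values floored at each array's lowest detected signal. Those nearest to Ahsp included Kcnj8, Rdh16, Abcc9, Cxcl14, Sectm1, Tmcc2 and Pf4, at distances of 0.97 to 1.13. Of these, Tmcc2 is on the red cell membrane list and Pf4 on the platelet list. In kidney Cxcl14 read 1698 without iron and 179 in the control, a log2 difference of at least 3.25. The 8 nearest to Rhd were Wdr59, Usp53, LOC685391, Fam178b, Has1, Pbsn, Mocs2 and Ppp1r3g, at distances of 0.25 to 0.50. Wdr59 read 1965 in iron-free and 361 in control liver and 860 in iron-free and 386 in control kidney. A profile of 6 arrays, in which several signals lie at the floor, is a coarse measure of likeness, and many genes can come close to it.

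**Figure D4:**
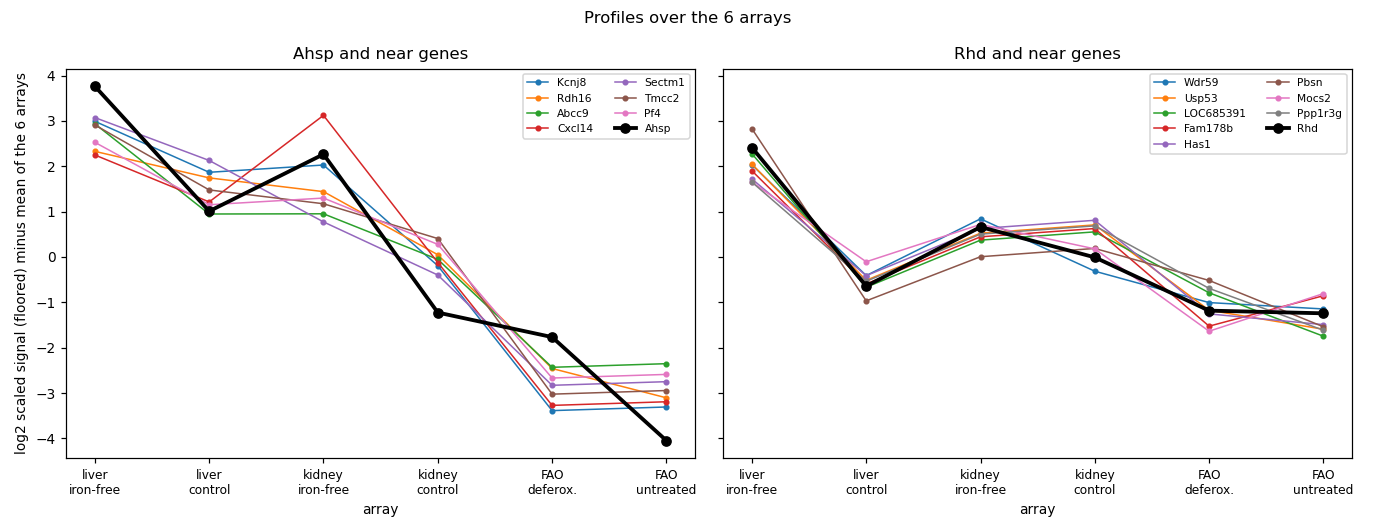
Log2 scaled signal of Ahsp (left) and Rhd (right), in black, and of the near genes named in the text, in colour, over the 6 arrays, each minus its own mean; signals under the lowest detected signal of an array are drawn at it, and lines join the arrays for reading only. Ahsp lies lower on the control kidney array than the near genes drawn with it, whereas Rhd lies within the range of those drawn with it there.

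**Figure D5:**
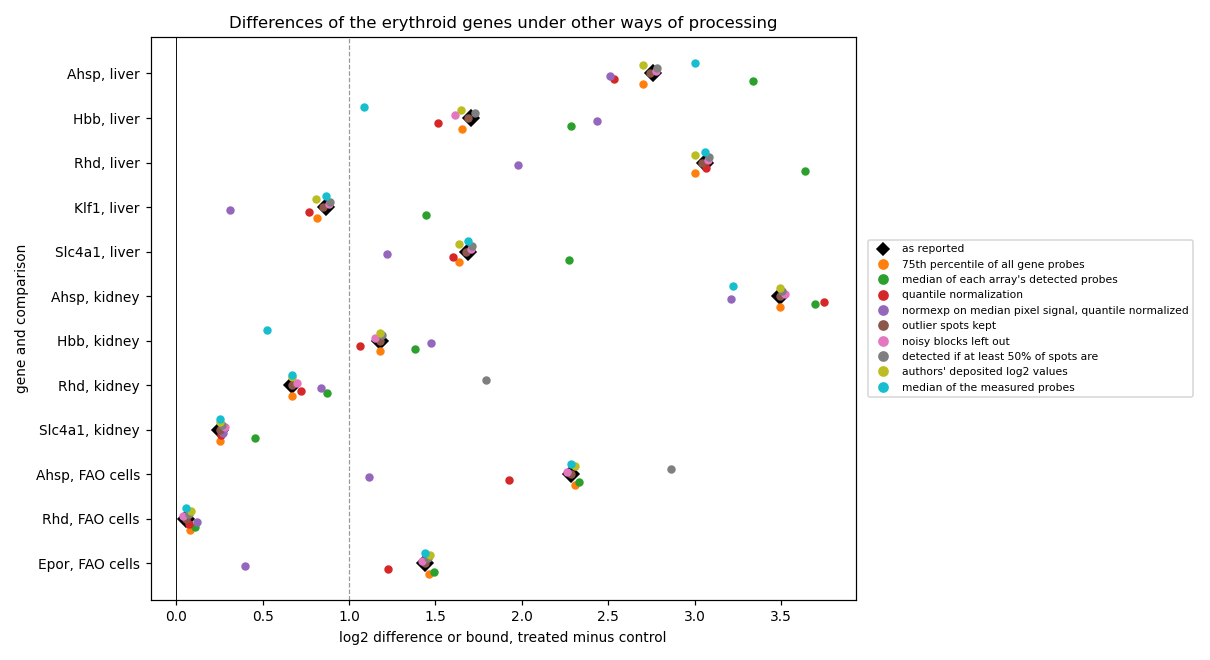
Difference or bound (log2, treated minus control) of each measured gene in each comparison as reported (diamonds) and under 9 other ways of processing (circles), with the dashed line at 2-fold. Of 108 alternative values 104 stayed on the same side of 2-fold and 0 changed sign, which values of the 3 bounds could not do.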

How the data were processed

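The 6 arrays hold pooled RNA, 1 array per group, with groups taken from sample titles, so the number of arrays and the signal over background limit the precision. Per the file headers, the authors used Agilent Feature Extraction 10.7.3.1 to obtain spot intensities. The headers give array design 028279 and build rn4. The deposited intensity used here is the background-subtracted processed signal. The deposited series table gives intensity and log2 values per probe. The authors' log2 value is the log2 intensity less a constant of that array, to within 1.23e-06 on iron-free liver. Its intensity was within a tolerance of 0.0001 of the scanner files' spot means for 97.1% to 98.3% of probes, and its median log2 values ran from -4.17 to -3.26.

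Log2 intensity was averaged over spots without outlier flags (680 to 1215 flagged per array; 0 saturated) and scaled so that the arrays share the 75th percentile over the 9091 probes (29.9%) that all 6 arrays detected well above background. For a probe this required every spot to be flagged so. The brightest probe over the 6 arrays stood for a gene; 24272 probes had a gene ID and 6095 had none. A call was a difference or bound of at least 2-fold. Spot SEs were pooled in 20 signal bins. Python 3.11.15, numpy 2.4.6 and pandas 2.3.3 were used, and normexp (offset 50) ran in limma 3.58.1 under R 4.3.3 on the deposited median pixel and background intensities, since the mean signal was not used here. RefSeq names (GRCr8) matched 19142 of 19958 genes, and no protein sequences were used.

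The 8 genes, the lists and the named genes were chosen with earlier results of these data known. Genes named were all 8, up to 4 genes past 2-fold per list and comparison by size (otherwise the brightest), Tfrc, Hamp, Alas2, the alpha globins, Alb, Umod and the nearest profiles of Ahsp and Rhd; 2 genes that this rule takes are not reported here. The other globin probes, the granule genes of neutrophils, Mcm7, Cxcl14 and Wdr59 were picked out after their values were seen. Alternatives were 3 other scalings, normexp, outlier spots kept, noisy blocks left out, a looser detection rule, the authors' log2 values, the median of probes and a 3-fold rule.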

Additional observations from a re-analysis of the deposited data

Results flagged for a closer look

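Hbb probe 2 differed in opposite directions in the tissues: 0.47 on the log2 scale, iron-free minus control, in liver, and -0.13 in kidney. The direction in kidney is not settled: single spots gave 0.32 and -0.58, against 0.47 and 0.46 in liver, and with scaling to the median of detected probes the kidney difference was 0.07 (liver 1.05). The kidney spots overlapped, and the difference between tissues was 0.60 ± 0.35 (spot SE). With 1 array per group it was not tested over animals.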

How the results depend on the processing

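Of 12 gene differences under 9 alternatives, 0 of 108 values changed sign. For the 3 that are bounds this was fixed in advance, since such a bound is kept only when above 0. The authors' log2 values also nearly repeated the scaling to the 75th percentile of all gene probes (Ahsp in liver 2.70 with each). For the 9 measured on both arrays, 70 of 81 values moved by less than the spot SE and 11 by more; the other 3 are bounds without an SE. In all, 4 values crossed 2-fold: Klf1 in liver with scaling to the median of detected probes (1.45), Rhd in kidney when 50% of spots sufficed for detection (1.79), Hbb in kidney with the median of probes (0.52) and Epor in FAO cells with normexp (0.40). The widest ranges were Rhd in liver (1.98 to 3.64), Hbb in liver (1.09 to 2.43) and Ahsp in FAO cells (1.11 to 2.86). The number of the 8 genes called was 1 in kidney with the median of probes and 1 with a 3-fold rule, and 1 in FAO cells with normexp and 1 with a 3-fold rule. With 50% of spots sufficing, Epor in liver became at least 2-fold lower and 5 genes were called. Genes called in liver were 969, and 2198 with scaling to the median of detected probes, 1531 with 50% of spots and 325 at 3-fold. In kidney they were 391, and 885 with 50% of spots and 157 at 3-fold. In FAO cells they were 1122, and 679 with normexp, 1826 with 50% of spots and 516 at 3-fold. With noisy blocks left out the genes lower in FAO cells were 401, against 689. With scaling to the median of detected probes the median shift of a gene's difference was 0.58 in liver and 0.20 in kidney. With normexp it was -0.10 in liver. By construction the 3-fold rule calls fewer genes and the 50% rule measures more. The normexp offset of 50, added to every signal, by construction shrinks log2 differences of low signals. How much of the normexp changes this makes up was not tested, nor was the cause of the other changes. No paired analysis was possible because each group is 1 array.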
